A study of Homo sapiens with 6 samples.

Results

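The genes described here are 36 nuclear genes for aminoacyl-tRNA synthetases, taken as a list of symbols from the 54261 gene rows of the count table. The list holds 20 genes for cytosolic enzymes (AARS, CARS, DARS, EPRS, FARSA, FARSB, GARS, HARS, IARS, KARS, LARS, MARS, NARS, QARS, RARS, SARS, TARS, VARS, WARS and YARS) and 16 for mitochondrial enzymes, whose symbols end in 2. It does not hold a mitochondrial gene for every amino acid. All 36 symbols were rows of the table, and 34 of them (19 cytosolic and 15 mitochondrial) had enough counts to be tested. VARS and VARS2 had 0 counts in all 6 libraries.

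RNA of 786-O cells, a human line from a clear-cell renal carcinoma, was compared with RNA of 7R, a line of those cells labelled as resistant to sunitinib, a drug that inhibits receptor tyrosine kinases. The libraries titled Sun-7C-1 to Sun-7C-3 are the control group, and those titled Sun-7R-1 to Sun-7R-3 are the resistant group, with 3 libraries each. Whether the drug was in the medium at harvest, and whether the libraries within a line are separate cultures, is not stated in the labels, so the p-values here reflect only library-to-library spread, possibly technical. Each line is a single line, and nothing in the labels describes a second resistant line or clone.

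Aminoacyl-tRNA synthetases attach each amino acid to its tRNA and so supply the ribosome with charged tRNAs. Mitochondria translate their own small set of messages with a separate set of enzymes, which are made in the cytosol and imported. Several cytosolic enzymes are held together with the scaffold proteins AIMP1, AIMP2 and EEF1E1 in the multi-synthetase complex. When amino acids run short or proteins misfold in the endoplasmic reticulum, the transcription factor ATF4 is made and switches on genes for amino acid synthesis and transport and many cytosolic synthetase genes.

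Total counts were 48264905 to 52221491 in the control libraries and 37919629 to 38131634 in the resistant ones. Levels are given in CPM, which are counts scaled to a common library total after TMM scaling, a method that evens out library composition. Where no read was counted, the limit is 3 counts in that library, or 0.0663 to 0.0707 CPM, for counting error only. Resistant library 1 stood apart from the other resistant libraries (chi-square per degree of freedom 60.1 and 62.9 against it, and 8.94 between the others), and it lay nearest to the control mean for 21 of the 26 synthetases that passed the test. In bulk RNA, fewer cells of a type and less RNA per cell cannot be told apart.

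Because the extraction text in the labels names a brain region, marker genes were read first. Of 9 renal and renal carcinoma markers, CA9 was at 0, and PAX8 and PAX2, transcription factors of kidney epithelium, were present. The summed renal markers were at 12335 to 13517 CPM in control and 3274 to 4184 CPM in resistant libraries. VIM, a mesenchymal filament gene that many cell types express, made up most of that sum, with means of 9987 and 2406 CPM, while LHX1 and NDUFA4L2 were near the bottom of the list at 0.672 and 1.26 CPM in control. Neuronal markers summed to 7.56 to 10.2 CPM in control and 15.2 to 20.3 CPM in resistant libraries, with STMN2 at 0, and glial markers to 22.5 to 27.3 and 38.0 to 41.6 CPM, with MOG and OLIG2 at 0. Blood markers summed to 40.1 to 47.4 and 8.79 to 11.4 CPM with PTPRC and CD3E at 0, endothelial markers were below 1 CPM in sum in every library, and 4 fibroblast markers, which LUM leads in the resistant line, summed to 5.22 to 6.45 and 19.4 to 42.6 CPM. The part of these markers in the synthetase results was not tested.

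Among 19 cytosolic genes tested, 10 were higher and 5 lower in the resistant line at an adjusted p of 0.05 (edgeR's quasi-likelihood test with Benjamini-Hochberg adjustment over all genes tested), and 4 did not pass. Among 15 mitochondrial genes, 3 were higher and 8 lower, and 4 did not pass. The background was high: 76.2% of the 16642 genes tested passed, 39.3% higher and 36.9% lower. The share of synthetases that passed, 26 of 34, was therefore near the share of all genes. The median log2 fold change (resistant over control) was 0.25 over the cytosolic genes and −0.45 over the mitochondrial ones, beside 0.05 over all genes tested. The change was at least 2-fold upward in 6 cytosolic and 0 mitochondrial genes, beside 27.0% of all genes, and at least 2-fold downward in 1 cytosolic and 3 mitochondrial genes, beside 22.4%.

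Much of this direction went with base composition. Over the 14217 tested genes with a known GC content, the log2 fold change fell with GC content (Spearman's rho −0.685, across genes, which are not independent replicates). Over the 34 synthetases rho was −0.66, with −0.53 in the 19 cytosolic and −0.84 in the 15 mitochondrial genes. All points share the same 6 libraries. Most fold changes and counts of genes are therefore also given from a second fit, called GC-adjusted. The order of levels per kilobase, the spread of levels within the multi-synthetase complex and the summed levels come from unadjusted levels alone. In the second fit, each library was corrected for a smooth trend with transcript length and GC content. Whether that trend came from library preparation or from the cells was not tested, and the adjustment removes either.

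**Figure D1:**
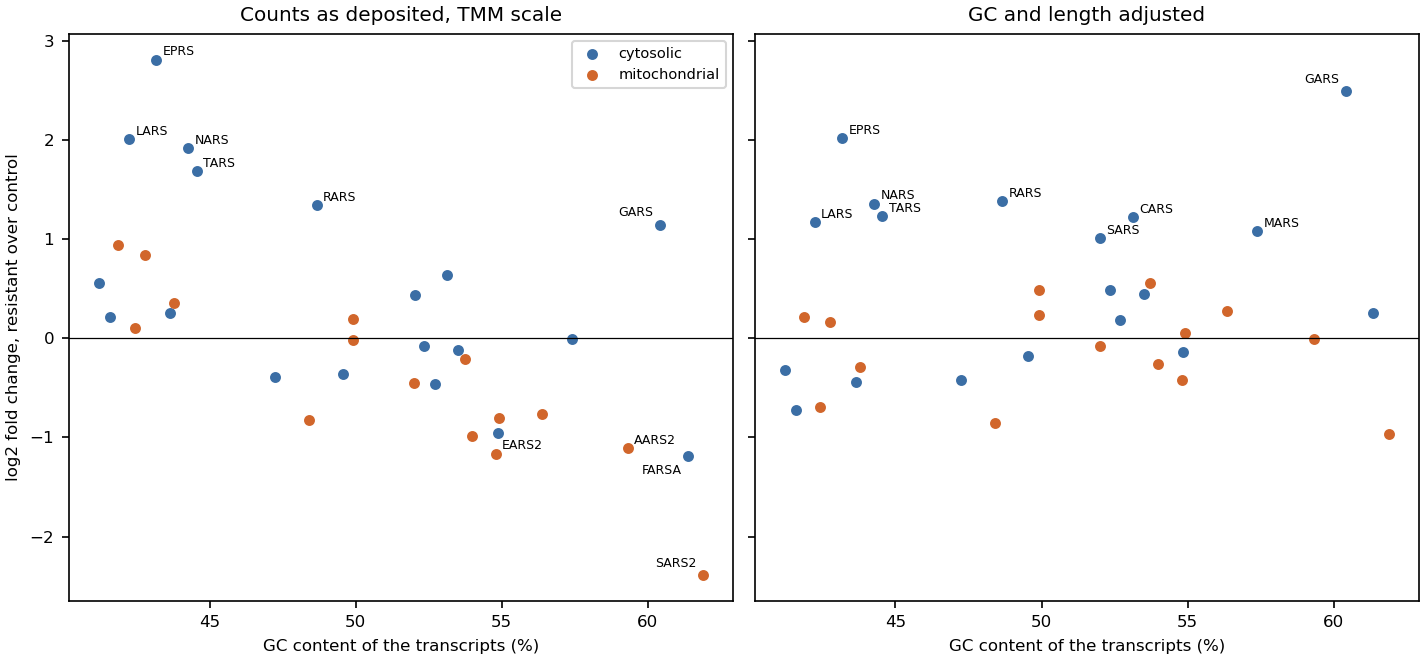
Log2 fold change of the 34 tested synthetases (resistant over control, y axis) against the median GC content of their transcripts in percent (x axis), with cytosolic genes in blue and mitochondrial genes in orange, before and after the adjustment for GC content and length. Before adjustment the change falls with GC content (rho −0.66), and after it the slope is gone (rho 0.12), with EPRS and GARS high in both.

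After that adjustment 13 cytosolic genes were higher and 4 lower, and 5 mitochondrial genes were higher and 4 lower. The background was then 66.9% of 14217 genes, 34.3% higher and 32.6% lower. The GC-adjusted median log2 fold change was 0.49 over the cytosolic genes and −0.01 over the mitochondrial ones, beside 0.02 over all genes. The cytosolic median was thus above that of all genes in both fits, while the mitochondrial median was below it before the adjustment and near it afterwards. Changes of 2-fold or more upward were found in 9 cytosolic and 0 mitochondrial genes, beside 14.2% of all genes, and such changes downward in 0 synthetases, beside 9.2%.

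Of 19 cytosolic genes, 8 passed both tests as higher and 1 as lower. Of 15 mitochondrial genes, 1 passed both as higher and 2 as lower. The share of all genes that passed both tests in the same direction was not taken. EPRS, LARS, NARS, TARS, RARS, GARS, CARS and SARS were higher in both fits and KARS was lower in both. RARS2 was the mitochondrial gene higher in both, though its adjusted call was lost when GC content alone was adjusted for (0.05, adjusted p = 0.609) and with a replicate block added (adjusted p = 0.0553). EARS2 and MARS2 were lower in both. Another 6 genes passed both tests in opposite directions (DARS, IARS and IARS2 from higher to lower, and FARSA, HARS and CARS2 from lower to higher), which is 17.6% of 34 beside 9.66% of all genes in both fits. With GC content alone adjusted for, the adjusted calls of FARSA, HARS and CARS2 were lost (adjusted p = 0.186, 0.717 and 0.202).

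**Figure D2:**
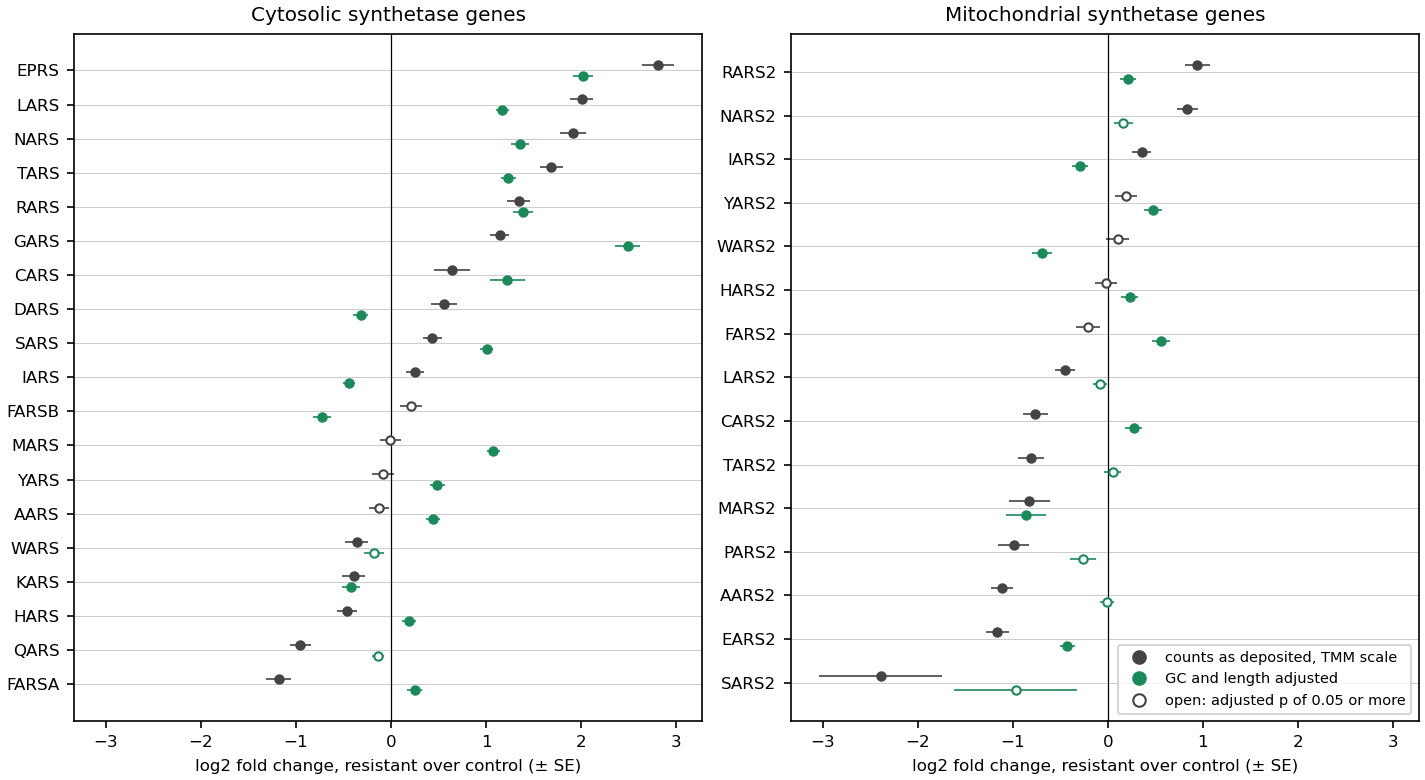
Log2 fold change of each tested synthetase with its standard error (resistant over control, x axis), by gene (y axis) and compartment, in the unadjusted (dark) and the GC-adjusted (green) fit, with open points where the adjusted p was 0.05 or more. EPRS, LARS, NARS, TARS, RARS and GARS lie above 1 in both fits, and FARSA, DARS, IARS, HARS, IARS2 and CARS2 lie on opposite sides of 0.

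EPRS, the enzyme that joins the activities for glutamate and proline in a single chain and is part of the multi-synthetase complex, rose most. It was at 72.2, 61.6 and 58.4 CPM in control libraries 1, 2 and 3 and at 335, 514 and 498 CPM in resistant libraries 1, 2 and 3. Every resistant library was far above every control library, and resistant library 1 was the lowest of its group. The log2 fold change was 2.81 ± 0.16 (SE; 7.01-fold, adjusted p = 8.27e-08) and 2.02 ± 0.11 GC-adjusted (4.05-fold).

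LARS, the leucine enzyme, which is also known as a leucine sensor of the mTORC1 pathway, rose from 72.5, 63.5 and 59.0 CPM to 229, 280 and 275 CPM. Its log2 fold change was 2.01 ± 0.12 (4.02-fold, adjusted p = 1.03e-07) and 1.17 GC-adjusted. The groups did not overlap, and the lowest resistant library was again library 1. NARS, the asparagine enzyme, was at 56.2, 42.2 and 42.7 CPM in control and at 155, 194 and 184 CPM in resistant libraries. That is a log2 fold change of 1.92 ± 0.14 (3.77-fold) and of 1.36 GC-adjusted. Again the lowest resistant value was well above the highest control value. TARS, the threonine enzyme, rose from 148, 125 and 112 CPM to 382, 444 and 414 CPM (log2 fold change 1.69 ± 0.12, 3.22-fold, and 1.23 GC-adjusted). These genes have a low GC content (43.2% in EPRS, 42.2% in LARS, 44.3% in NARS and 44.6% in TARS), and all of their adjusted changes were smaller than the unadjusted ones.

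GARS, which encodes the glycine enzyme of both the cytosol and the mitochondria, behaved the other way. Its level was 304, 294 and 282 CPM in control and 585, 668 and 693 CPM in resistant libraries, with no overlap. The log2 fold change was 1.14 ± 0.10 (2.21-fold, adjusted p = 9.49e-07). With a GC content of 60.4% it grew to 2.49 ± 0.13 GC-adjusted (5.62-fold), the largest adjusted change among the synthetases. The GC content and length used are medians over the transcripts of GARS. Its median length was 1479 bases, beside 2634 bases in its longest coding transcript. How far the adjusted change depends on the transcripts taken was not tested. RARS, the arginine enzyme, was at 42.8 to 51.5 CPM in control and at 105 to 127 CPM in resistant libraries. With a GC content near the middle (48.7%), its log2 fold change hardly moved (1.34 unadjusted and 1.39 adjusted). CARS, for cysteine, and SARS, for serine, rose less, by log2 fold changes of 0.64 and 0.44, and by 1.22 and 1.01 GC-adjusted. CARS was the tested cytosolic gene with the fewest counts (7.60 to 12.4 CPM in control and 12.5 to 16.1 CPM in resistant libraries), and without control library 2 its unadjusted change was 0.45 (adjusted p = 0.0590).

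**Figure D3:**
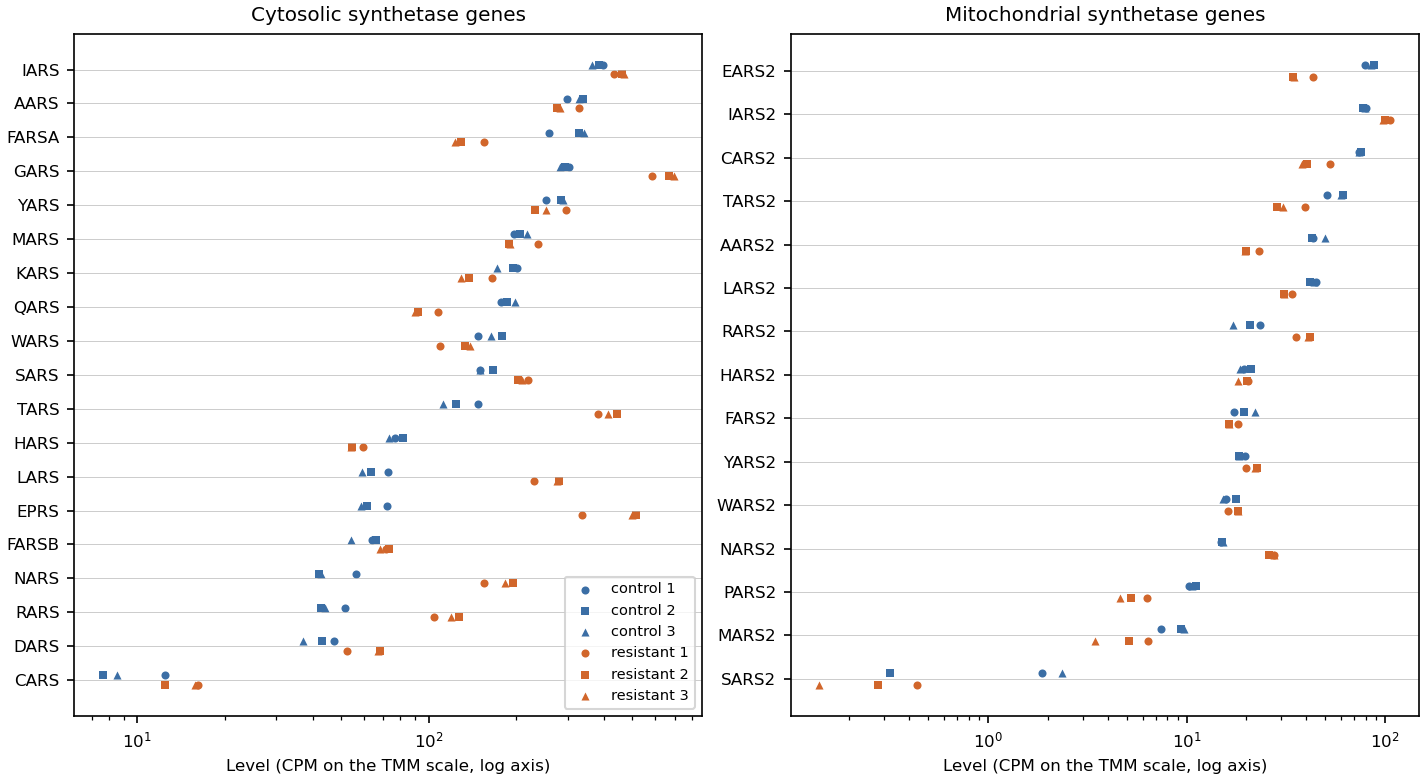
Level of each synthetase in every library (CPM on a log x axis, genes on the y axis) for the cytosolic and the mitochondrial genes, with control libraries in blue, resistant libraries in orange and 1 marker shape for each replicate number. The resistant points of EPRS, LARS, NARS, TARS, RARS and GARS lie above all control points, and those of FARSA, QARS, EARS2 and AARS2 lie below them.

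FARSA and FARSB encode the alpha and beta subunits of the phenylalanine enzyme, which works with equal numbers of both. FARSA was at 259, 327 and 341 CPM in control and at 155, 129 and 124 CPM in resistant libraries (log2 fold change −1.18 ± 0.13, adjusted p = 5.00e-06), the largest unadjusted decrease among the cytosolic genes. FARSB was at 63.9, 65.7 and 54.1 CPM and at 71.4, 73.4 and 67.9 CPM (0.21 ± 0.11, adjusted p = 0.102). The FARSA groups were far apart, while the FARSB groups were separated by a narrow gap and did not pass the test. After adjustment the picture turned over: FARSA (GC content 61.4%) was at 0.25 (adjusted p = 0.0129) and FARSB (41.6%) at −0.72 (adjusted p = 3.84e-05). With GC content alone adjusted for, FARSA was at 0.13 and did not pass (adjusted p = 0.186), while FARSB was at −0.71 (adjusted p = 4.33e-05).

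Per kilobase of transcript, the ratio of FARSA to FARSB was 6.62, 8.15 and 10.3 in control and 3.56, 2.89 and 2.98 in resistant libraries. From GC-adjusted levels it was 3.49, 3.45 and 3.93 in control and 6.44, 7.70 and 7.28 in resistant libraries. Neither set of ratios overlapped between the lines (two-sided exact permutation test, p = 0.1 for each, the smallest that 3 against 3 libraries can give), and the directions were opposite. FARSA messages outnumbered FARSB messages in each library on both scales.

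QARS, the glutamine enzyme of the multi-synthetase complex, fell from 177, 186 and 198 CPM to 107, 92.0 and 90.0 CPM (log2 fold change −0.96 ± 0.11, adjusted p = 6.04e-06). The resistant libraries were all below the controls, but the GC-adjusted change was −0.14 (adjusted p = 0.0798). KARS, the lysine gene for both compartments, was at 201, 194 and 172 CPM and at 165, 138 and 129 CPM. Its log2 fold change was alike in both fits, at −0.39 ± 0.12 (adjusted p = 0.00892) and −0.42 GC-adjusted (adjusted p = 0.00235), and the groups were separate but close, with 172 and 165 CPM at the gap. With scaling by library size alone the KARS change was −0.05 (adjusted p = 0.714). WARS, the tryptophan enzyme, which interferon is known to induce, was at 147, 179 and 163 CPM and at 109, 133 and 139 CPM (−0.36, adjusted p = 0.0159, and −0.18 GC-adjusted, adjusted p = 0.148). Its call was lost without control library 2 (adjusted p = 0.0536) and with library size alone (adjusted p = 0.900).

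DARS, IARS and HARS, the enzymes for aspartate, isoleucine and histidine, changed direction with the adjustment. DARS was at 47.3, 43.0 and 37.0 CPM in control and at 52.3, 68.2 and 66.9 CPM in resistant libraries (log2 fold change 0.56, adjusted p = 0.00244), and at −0.32 GC-adjusted (adjusted p = 0.00273). IARS was at 396, 384 and 363 CPM and at 434, 461 and 467 CPM (0.25, adjusted p = 0.0260), and at −0.44 GC-adjusted (adjusted p = 8.00e-05). The IARS increase was small, and its call was lost in 5 of the 6 fits with 1 library left out, all but the one without resistant library 1 (adjusted p 0.0666, 0.151 and 0.164 without control libraries 1, 2 and 3, and 0.0866 and 0.0940 without resistant libraries 2 and 3). HARS went from 76.9, 81.7 and 73.4 CPM to 59.6, 54.5 and 54.0 CPM (−0.47, adjusted p = 0.00140), was at −0.12 with library size alone (adjusted p = 0.322), and was at 0.19 GC-adjusted (adjusted p = 0.0440; 0.16 and 0.0734 without resistant library 1). In all of these the groups were separate in the unadjusted levels.

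AARS, MARS and YARS, for alanine, methionine and tyrosine, did not pass the unadjusted test. Their control and resistant levels overlapped and stood at means of 322 and 296 CPM in AARS, 206 and 205 CPM in MARS and 275 and 260 CPM in YARS. All of them passed after adjustment, with log2 fold changes of 0.44 in AARS, 1.08 in MARS and 0.49 in YARS. Without resistant library 1, AARS passed the unadjusted test as lower (−0.21, adjusted p = 0.0374). MARS overlaps DDIT3, a stress-response gene on the opposite strand that was higher itself (log2 fold change 1.92) and had 3444 counts over the 6 libraries. The strand setting of the counting is not given, so reads of overlapping genes cannot be told apart. The same holds for YARS with S100PBP, WARS with WDR25 and DARS with DARS-AS1.

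Within the multi-synthetase complex, the 8 synthetase genes did not move together. EPRS, LARS, RARS, DARS and IARS were higher and QARS and KARS lower, with MARS not passing. GC-adjusted, EPRS, LARS, RARS and MARS were higher and DARS, IARS and KARS lower. Over all genes 39.3% were higher and 36.9% lower, and 34.3% and 32.6% GC-adjusted, so calls in both directions were common in the whole table. In each control library EPRS had the lowest and IARS the highest level per kilobase of the complex, and the highest was 5.91, 6.71 and 6.70 times the lowest. In the resistant libraries DARS was lowest, IARS or EPRS was highest, and the ratio was 4.21, 3.55 and 3.54. By this ratio, the unadjusted levels of the complex members were closer to each other in every resistant library than in any control library. The ratio was not taken from GC-adjusted levels. Among the scaffold genes, AIMP1 went from 9.34 to 12.7 CPM in control to 25.2 to 36.9 CPM in resistant libraries (log2 fold change 1.48, and 0.27 GC-adjusted), AIMP2 fell (−0.85 and −0.41), and EEF1E1 was higher before the adjustment (0.75) and lower after it (−0.53, adjusted p = 0.0232). The adjusted calls of AIMP1 and EEF1E1 were lost when GC content alone was adjusted for (adjusted p = 0.127 and 0.0577), and that of EEF1E1 with a replicate block added (adjusted p = 0.0512).

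Many cytosolic synthetase genes are commonly listed as ATF4 targets. Of the 12 tested (AARS, CARS, EPRS, GARS, IARS, LARS, MARS, NARS, SARS, TARS, WARS and YARS), 8 were higher and WARS was lower, beside 39.3% of all genes higher and 36.9% lower, with a median log2 fold change of 0.54. GC-adjusted, 10 were higher and IARS was lower, beside 34.3% and 32.6% of all genes, with a median of 1.13. Increases of 2-fold or more were found in 5 before the adjustment, beside 27.0% of all genes, and in 8 after it, beside 14.2%. With GC content alone adjusted for, they were found in 6. Of the 7 cytosolic genes not on that list, DARS and RARS were higher and FARSA, HARS, KARS and QARS lower, with a median of −0.39. GC-adjusted, FARSA, HARS and RARS were higher and DARS, FARSB and KARS lower, with a median of −0.14. The difference between these lists was not tested, since the lists were drawn up with earlier results of these data known.

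Of 9 reference genes of the same stress response, 8 were tested, and 6 were higher and 0 lower, beside 39.3% and 36.9% of all genes. TRIB3 (log2 fold change −0.19, adjusted p = 0.248) and SESN2 (0.39, adjusted p = 0.0813) did not pass. With 1 library left out, 5 to 7 were higher, and 1 was lower without control library 1 and without resistant library 1. After the GC adjustment all 8 were higher, beside 34.3% of all genes. ATF4 itself was at 691, 710 and 691 CPM in control and at 897, 780 and 824 CPM in resistant libraries (log2 fold change 0.26, adjusted p = 0.0256, and 1.20 GC-adjusted), and its unadjusted call was lost with a replicate block (adjusted p = 0.0802). CHAC1, a glutathione-degrading enzyme, rose from 5.91, 5.85 and 8.68 CPM to 56.5, 24.5 and 38.9 CPM (2.55, and 3.94 GC-adjusted). In unadjusted levels, resistant library 1 was the highest resistant library for CHAC1 and ATF4 and the lowest for EPRS, LARS, NARS and TARS. GC-adjusted, ATF4 was at 1217, 1195 and 1246 CPM in resistant libraries 1, 2 and 3, so library 3 was highest. CHAC1 was still highest, and those synthetases lowest, in library 1. What set these orders was not tested. ASNS, which makes asparagine, rose by 1.94 and PSAT1, of serine synthesis, by 1.497 on the log2 scale, while PHGDH, the first enzyme of serine synthesis, had 3 counts in control and 4 in resistant libraries and was not tested.

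Promoter sequences are shown because ATF4 binds, with C/EBP partners, a composite element whose core reads TTGCATCA on one strand. RefSeq promoter windows (build GRCh38.p14, 250 bases before to 50 after a gene start) were found for 30 of the 36 synthetases, 16 cytosolic and 14 mitochondrial. TTGCATCA, searched on both strands, was present in the windows of 6 cytosolic and 0 mitochondrial genes, beside 1.08% of the 27305 genes with a window. The match and its flanks are printed 5′ to 3′ on the gene's strand, with the match in capitals.
AARS, chr16:70289675-70289704, minus strand: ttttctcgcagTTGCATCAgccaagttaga
CARS, chr11:3057407-3057436, minus strand: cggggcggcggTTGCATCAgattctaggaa
IARS, chr9:92293692-92293721, minus strand: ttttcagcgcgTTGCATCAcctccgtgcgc
MARS, chr12:57488053-57488082, plus strand: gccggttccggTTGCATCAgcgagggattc
NARS, chr18:57621804-57621833, minus strand: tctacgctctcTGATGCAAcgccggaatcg
TARS, chr5:33440956-33440985, plus strand: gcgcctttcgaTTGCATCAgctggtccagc

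In NARS the match lies as the reverse complement, TGATGCAA. It begins 187 bases before the RefSeq start in AARS and within 14 bases of it on either side in the other 5 genes. The looser pattern TGATGNAA, which contains that reverse complement, was present in 8 synthetases, these 6 with GARS and YARS2, beside 4.46% of all genes, and the longer TGATGCAAT in TARS alone, beside 0.293%. Of the 6 genes with TTGCATCA, CARS, NARS and TARS were higher in both fits, AARS and MARS were higher after adjustment alone, and IARS changed direction. EPRS, the gene that rose most, had no match to these patterns in its window. A match describes letters in a window and is not evidence of binding, and the absence of one says only that the letters are not in that window.

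The mitochondrial set was led upward by RARS2, NARS2 and IARS2, the enzymes for arginine, asparagine and isoleucine. RARS2 was at 23.4, 20.7 and 17.1 CPM in control and at 35.4, 41.7 and 40.8 CPM in resistant libraries (log2 fold change 0.94, adjusted p = 4.34e-05), and at 0.21 GC-adjusted (adjusted p = 0.0400). NARS2 was at 14.97, 15.1 and 15.3 CPM and at 27.5, 26.0 and 27.6 CPM (0.84, adjusted p = 1.94e-05), and at 0.16 GC-adjusted (adjusted p = 0.155). These groups were well separated, but most of the change went with the adjustment. IARS2 was at 80.1, 77.6 and 79.1 CPM and at 106, 100.0 and 97.1 CPM (0.36, adjusted p = 0.00528), and at −0.29 GC-adjusted (adjusted p = 0.00897). The IARS2 call was lost without control library 2 (0.29, adjusted p = 0.0614).

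On the lower side, EARS2, the mitochondrial glutamate enzyme, fell from 79.1, 88.2 and 85.2 CPM to 43.5, 34.4 and 34.9 CPM. Its log2 fold change was −1.16 ± 0.12 (adjusted p = 3.22e-06), and −0.43 ± 0.08 GC-adjusted (adjusted p = 0.000556), with no overlap between the lines. EARS2 overlaps UBFD1 on the opposite strand, which had 25569 counts over the 6 libraries, so part of its reads may be from that gene. AARS2, the alanine enzyme, was at 43.1, 43.0 and 49.6 CPM and at 23.1, 20.004 and 19.7 CPM (−1.11, adjusted p = 3.68e-06). PARS2, the proline enzyme, was at 10.2, 11.2 and 10.7 CPM and at 6.32, 5.26 and 4.59 CPM (−0.99, adjusted p = 0.000127). All resistant libraries were below all controls in both genes, yet neither passed after adjustment (−0.01, adjusted p = 0.933, and −0.26, adjusted p = 0.111).

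SARS2, the mitochondrial serine enzyme, had few counts: 82, 14 and 107 in control and 19, 12 and 6 in resistant libraries. Its log2 fold change was the largest decrease of any synthetase, at −2.39 ± 0.65 (adjusted p = 0.00500), but control library 2 lay within the resistant range, and the GC-adjusted change was −0.97 (adjusted p = 0.206). SARS2 shares its locus with MRPS12 on the opposite strand, which had 59 counts in all. It also overlaps AC011455.2, a protein-coding gene on the same strand that has no row of that name in the count table. CARS2, the cysteine enzyme, was at 73.7, 75.2 and 73.9 CPM and at 52.7, 40.6 and 37.9 CPM (−0.76, adjusted p = 0.000184), and at 0.27 GC-adjusted (adjusted p = 0.0187; 0.17 and 0.0713 without resistant library 1). MARS2, for methionine, was lower to the same extent in both fits (−0.83 and −0.86), though with library size alone it was at −0.48 (adjusted p = 0.0631). TARS2 and LARS2 were lower before the adjustment alone (−0.81 and −0.45), and LARS2 did not pass with library size alone (−0.11). FARS2, YARS2 and HARS2 were higher after adjustment alone (0.56, 0.48 and 0.23), where WARS2 was lower (−0.69).

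HARS and HARS2, the cytosolic and the mitochondrial histidine enzymes, lie head to head, and their RefSeq starts are 85 bases apart. The 84 bases between the starts are shown because both genes are read outward from them, HARS to the left and HARS2 to the right on the plus strand, with no capitals because none of the patterns above was found.
HARS and HARS2, chr5:140691371-140691454, plus strand: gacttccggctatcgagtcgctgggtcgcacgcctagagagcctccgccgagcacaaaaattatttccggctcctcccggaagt

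Despite this shared stretch, HARS fell by 0.47 and HARS2 was at −0.02 (adjusted p = 0.904) on the log2 scale. HARS2 levels were 18.5 to 21.2 CPM in control and 18.04 to 20.3 CPM in resistant libraries and overlapped. The ratio of HARS to HARS2 counts was 3.95, 3.86 and 3.97 in control and 2.93, 2.72 and 2.99 in resistant libraries, without overlap. GC-adjusted, the log2 ratio differed by −0.04 and the lines overlapped. The annotated genes overlap on opposite strands, so with the strand setting not given their reads cannot be told apart where they do.

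Ratios of the cytosolic to the mitochondrial enzyme for the same amino acid do not depend on the scaling between libraries. Of 12 such pairs with counts, 9 did not overlap between the lines, 7 with a higher and 2 with a lower ratio in the resistant line, where 80.3% of all genes tested had levels that did not overlap. GC-adjusted, 8 did not overlap and all of those were higher. The share of 80.3% is for unadjusted levels of single genes, and no such share was taken for ratios between genes or for GC-adjusted levels. With 3 libraries against 3, the two-sided exact permutation test cannot go below p = 0.1, which is the value of each pair without overlap (0.133 after Benjamini-Hochberg adjustment over the 12 pairs, and 0.15 for the GC-adjusted ratios).

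Among the pairs without overlap the ratio moved most for threonine and leucine. TARS to TARS2 per kilobase was 1.83, 1.29 and 1.18 in control and 6.14, 9.86 and 8.60 in resistant libraries, a log2 difference of 2.51 (1.19 GC-adjusted). LARS to LARS2 was 1.61, 1.51 and 1.34 and then 6.76, 9.04 and 8.85, a log2 difference of 2.46 (1.25 GC-adjusted). In these unadjusted ratios the messages of both pairs were near parity in the control line and several times apart in the resistant line. The distance from parity depends on the transcript length used and was not taken from GC-adjusted levels. For cysteine the mitochondrial message was the more abundant one: CARS to CARS2 was 0.115, 0.0689 and 0.0784 in control and 0.208, 0.209 and 0.285 in resistant libraries (log2 difference 1.44, and 0.99 GC-adjusted). The pairs for asparagine, alanine, methionine and arginine were also higher without overlap, by 1.09, 0.99, 0.85 and 0.39 (1.20, 0.45, 1.97 and 1.17 GC-adjusted). The tryptophan pair was lower before the adjustment (−0.47) and higher after it (0.50), and the pairs for isoleucine, tyrosine and serine overlapped.

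**Figure D4:**
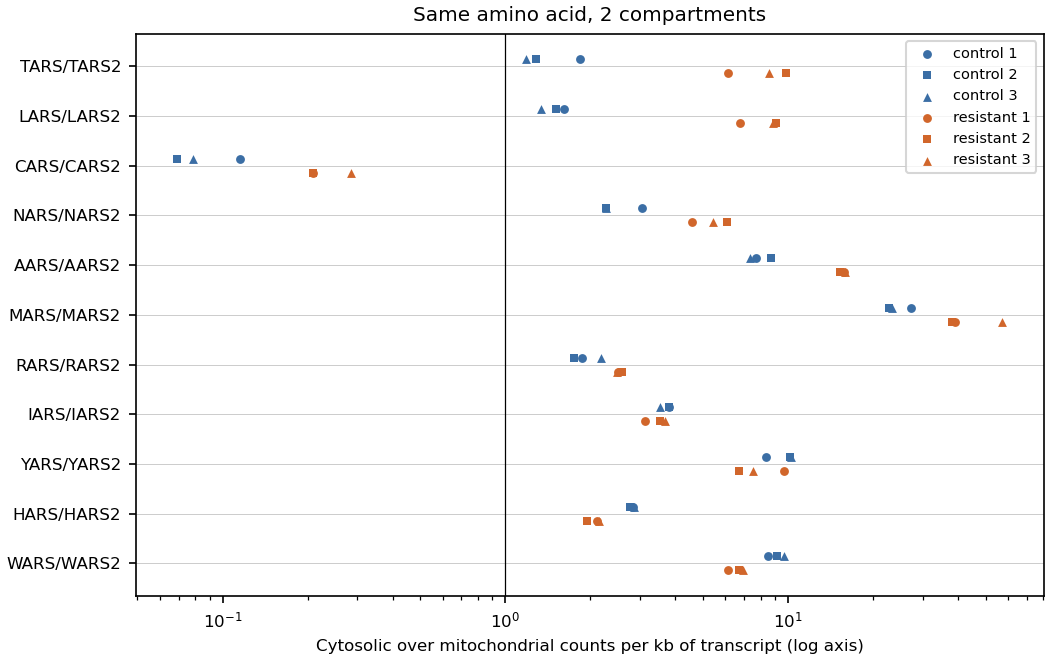
Ratio of the cytosolic to the mitochondrial synthetase of the same amino acid per kilobase of transcript in each library (log x axis), with control libraries in blue, resistant libraries in orange and a line at parity. The pairs with counts are shown except the serine pair, whose SARS2 counts were few, and the ratios for leucine and threonine go from 1.18 to 1.83 in control to 6.14 to 9.86 in resistant libraries.

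Levels can be compared between genes only per kilobase of transcript. On that scale the control line was led by FARSA (150 ± 21.5 CPM per kilobase, SD, n = 3) and GARS (111 ± 4.06), whose ranges did not overlap. Next came AARS (92.6 ± 5.87), YARS (85.0 ± 6.13), SARS (82.7 ± 5.11) and IARS (81.8 ± 3.57), each overlapping its neighbour in this order. EPRS (12.8 ± 1.44), LARS (13.6 ± 1.44) and NARS (15.2 ± 2.56) were at the low end of the cytosolic set, with overlapping ranges, and of the cytosolic genes tested CARS alone (3.45 ± 0.929) was lower. EPRS also overlapped its mitochondrial neighbour AARS2 (11.7 ± 0.984).

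In the resistant line GARS led with 246 ± 21.5 CPM per kilobase, above SARS (112 ± 4.24) without overlap. IARS (97.5 ± 3.80), TARS (95.8 ± 7.19) and EPRS (89.6 ± 19.8) followed with overlapping ranges, so that EPRS stood among the highest genes instead of the lowest. FARSA (66.1 ± 8.12) overlapped MARS and KARS. The median over the cytosolic genes tested was 52.8 in control and 59.4 in resistant libraries, and over the mitochondrial genes 9.17 and 9.49. CARS2 (39.5 ± 0.429 in control) and IARS2 (28.4 ± 1.28 in resistant libraries) were the highest mitochondrial genes of their line, and SARS2 was the lowest in both.

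Summed over the set, cytosolic synthetase messages made up 2983, 3092 and 2993 CPM in control and 4042, 4287 and 4272 CPM in resistant libraries. The mean sum was 1177 CPM higher in the resistant line, of which EPRS gave 385, GARS 355 and TARS 285 CPM, while FARSA took 173 CPM away. The mitochondrial sum was 502, 520 and 521 CPM and then 449, 410 and 402 CPM. Neither set of sums overlapped between the lines in these unadjusted levels, and 80.3% of single genes tested did not overlap either. The sums were not taken from GC-adjusted levels.

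Synthetases fall into 2 classes that differ in the fold of the catalytic domain. In class I, 4 of 8 cytosolic genes were higher and 2 lower, and 2 of 8 mitochondrial genes were higher and 4 lower. In class II, 5 of 10 cytosolic genes were higher and 3 lower, and 1 of 7 mitochondrial genes was higher and 4 lower. GC-adjusted, the counts were 5 and 1 (cytosolic class I), 3 and 4 (mitochondrial class I), 7 and 3 (cytosolic class II) and 2 and 0 (mitochondrial class II). Over all genes 39.3% were higher and 36.9% lower before the adjustment, and 34.3% and 32.6% after it. The difference between the classes was not tested.

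Other genes of tRNA charging and mitochondrial translation moved in both directions. Mitochondria make glutaminyl-tRNA through an amidotransferase, and of its subunit genes GATB and GATC were lower in both fits (log2 fold change −0.85 and −0.51, and −0.62 and −1.05 GC-adjusted), while QRSL1 was higher before the adjustment alone (0.93). Of 10 mitochondrial translation factor genes, 6 were higher and 2 lower, and 2 were higher and 4 lower GC-adjusted. Beside these counts, 39.3% of all genes were higher and 36.9% lower (34.3% and 32.6% GC-adjusted). MTIF2, an initiation factor, and GFM2, a recycling factor, were higher in both fits (1.77 and 1.09, and 0.90 and 0.26 GC-adjusted), and TUFM, which brings charged tRNAs to the mitochondrial ribosome, was lower in both (−1.65 and −0.52), as was MTFMT, which formylates the initiator methionyl-tRNA (−0.57 and −0.99). With library size alone the unadjusted changes of GATC (−0.17, adjusted p = 0.168) and MTFMT (−0.23, adjusted p = 0.245) did not pass.

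Genes for making and finishing tRNAs were counted the same way. Of 13 RNA polymerase III genes 3 were higher and 9 lower (4 and 5 GC-adjusted), and of 16 tested genes for tRNA ends and splicing 5 were higher and 8 lower (3 and 7 GC-adjusted). Over all genes 39.3% were higher and 36.9% lower (34.3% and 32.6% GC-adjusted). POLR3B, the second-largest core subunit, was higher in both fits (1.59 and 0.92), and POLR3D and POLR3K were lower in both (−1.44 and −0.94, and −1.65 and −1.96). MAF1, a repressor of RNA polymerase III, was lower before the adjustment (−0.71) and higher after it (0.77). Of 4 tested genes for proofreading and selenocysteine 1 was higher and 2 lower (0 and 1 GC-adjusted), and SEPSECS, the last enzyme of selenocysteine synthesis, was the one higher (1.60, and 0.28 with no call GC-adjusted).

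VARS and VARS2, the valine enzymes, are listed at 0 in all 6 libraries. Both lie in the same gene-dense region of chromosome 6. Of the protein-coding genes of the table within 1 Mb of VARS in GENCODE 29, 51 of 89 (57.3%) were also at 0 in every library, and 51 of 86 (59.3%) around VARS2. Over all 19194 protein-coding genes matched, that share was 19.6%, and it was 64.6% (53 of 82) around HARS and HARS2, which had counts in every library. Around the other synthetases the share ran from 0% (as around AARS) to 43.8% (around GARS). The cause was not tested, and no statement about valine enzymes is possible from this table.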

How the data were processed

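The deposited table holds raw counts, as the authors left them, for each gene symbol and library. HISAT2 2.0.4 was used, per the submitters' processing notes. Counter, strand setting, annotation and genome build: not given in the sources used here. Columns were matched to samples by title, which left 0 columns unmatched. No libraries of a line agreed within sampling noise.

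Genes were kept by filterByExpr, scaled by TMM and compared by the quasi-likelihood test of edgeR 4.0.16 in R 4.3.3, with Benjamini-Hochberg adjustment over all genes tested. Standard errors were taken as the size of the log2 change divided by the root of its F statistic. GC content and length are medians over a gene's GENCODE 29 basic transcripts (85.4% of tested genes had a value). Natural splines with 6 degrees of freedom for GC content and 5 for log2 length were fitted to each library's log2 CPM deviation (prior count 1) and used as offsets. Levels per kilobase use the longest basic protein-coding transcript. In some genes the median length was far below that transcript, as in MARS (1399.5 and 2905 bases), RARS (1161.5 and 2146) and HARS (1842.5 and 3494). The effect of this on the adjustment was not tested. Scripts were tested on simulated data.

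Members and lists were chosen with earlier results of these data known. The members given per library are the 4 largest increases and 4 largest decreases that passed the test in each compartment, those that changed direction with the adjustment, and FARSA, FARSB, KARS, GARS, EPRS, QARS and WARS. Alternatives were other scalings, low-count filters, DESeq2 1.42.0, a replicate block and leaving out each library. Promoters of 6 members were not used here.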

Additional observations from a re-analysis of the deposited data

How the results depend on the processing

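DESeq2's test and its size factors gave the same calls as edgeR for all 34 synthetases, and the other filters and the upper-quartile scaling changed 1 call each. Scaling by library size alone moved the median of all genes from 0.05 to 0.39 (log2). With it 2 cytosolic genes were lower and 6 mitochondrial genes higher, the medians were 0.59 and −0.11, MARS was at 0.34 and HARS2 at 0.33. Requiring 1 CPM in 3 libraries, which drops SARS2, gave a mitochondrial median of −0.28.

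The adjustment for GC content and length turned 14 directions. Log2 fold changes with it were AARS 0.44, CARS2 0.27, DARS −0.32, FARS2 0.56, FARSA 0.25, FARSB −0.72, HARS 0.19, HARS2 0.23, IARS −0.44, IARS2 −0.29, MARS 1.08, TARS2 0.052, WARS2 −0.69 and YARS 0.49. With GC content alone they were AARS 0.47, AARS2 0.056, CARS2 0.13, DARS −0.42, FARS2 0.42, FARSA 0.13, FARSB −0.71, HARS 0.033, IARS −0.40, IARS2 −0.27, MARS 0.99, WARS2 −0.72 and YARS 0.37. Without resistant library 1 as well as adjusted they were AARS 0.39, CARS2 0.17, DARS −0.28, FARS2 0.54, FARSA 0.23, FARSB −0.80, HARS 0.16, IARS −0.45, IARS2 −0.37, MARS 1.02, WARS2 −0.70 and YARS 0.41. The log2 ratio of WARS to WARS2 was then at 0.50 and that of YARS to YARS2 at 0.0061 with the adjustment. Adjusted cytosolic medians were 0.49 (GC content and length), 0.47 (GC content alone) and 0.41 (without resistant library 1), and mitochondrial medians −0.0077, −0.037 and −0.060. Adjusted mitochondrial genes were higher in 5, 2 and 3 cases and lower in 4, 5 and 5.

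Equal replicate numbers do not show pairing, since same-numbered libraries correlated at −0.13, −0.01 and −0.06. A replicate block gave 9 cytosolic genes higher and 5 lower and 3 mitochondrial genes higher and 8 lower, with the IARS call lost (adjusted p = 0.0878). With the block and the adjustment 12 and 4 cytosolic and 4 and 4 mitochondrial genes passed, with medians of 0.49 and −0.0071, and log2 fold changes of AARS 0.44, CARS2 0.27, DARS −0.32, FARS2 0.56, FARSA 0.25, FARSB −0.73, HARS 0.19, HARS2 0.23, IARS −0.44, IARS2 −0.30, MARS 1.08, TARS2 0.048, WARS2 −0.69 and YARS 0.49.

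Leaving out 1 library at a time gave 8 to 10 cytosolic genes higher and 4 to 6 lower, 2 to 3 mitochondrial genes higher and 8 to 9 lower, and medians of 0.18 to 0.28 and −0.53 to −0.43. Calls changed for AARS, CARS, IARS, WARS, IARS2 and FARS2, the last of which was lower without control library 1 (−0.34, adjusted p = 0.0392). After the adjustment, resistant library 1 decided HARS2 (adjusted p = 0.0780 without it), QARS (lower, adjusted p = 0.0155) and PARS2 (lower, adjusted p = 0.0418) as well as HARS and CARS2. With 3 libraries a line and an exact p of at least 0.1, single ratios cannot pass a threshold. The few counts of SARS2, 6 to 107 in a library, limit what can be said of it, and their cause was not tested. Whether depth had a part in the absence of counts for VARS and VARS2 was not tested.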
